A study of Mus musculus with 36 samples.

Results

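The set described here holds 10 genes of antigen presentation by MHC class I, found by symbol among the 46078 genes of each count file: B2m, H2-K1, H2-D1, Tap1, Tap2, Tapbp, Erap1, Psmb8, Psmb9 and Nlrc5. MHC class I molecules show peptides made inside a cell to CD8+ T cells. Each molecule pairs a heavy chain, such as the products of H2-K1 and H2-D1 in the mouse, with the light chain beta-2 microglobulin, the product of B2m. The proteasome cuts proteins into peptides, and its subunits Psmb8 and Psmb9 replace constitutive ones to form the immunoproteasome, which cells make after interferon signalling. Tap1 and Tap2 form the pump that carries peptides into the endoplasmic reticulum, Tapbp (tapasin) bridges that pump to the empty heavy chain, and Erap1 trims peptides there. Nlrc5 is the transactivator that drives transcription of most of these genes. Tumour cells often carry little of part of this pathway.

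RNA was sequenced from RM-1-BM, a mouse prostate cancer cell line transduced with an empty vector or with the F133V mutant of SPOP, a substrate adaptor of a ubiquitin ligase, and from RAW264.7, a mouse macrophage line. Cancer cells formed 8 groups: vector or F133V cells, grown alone (monoculture) or across a transwell membrane from RAW264.7 cells (coculture), each with olaparib, an inhibitor of PARP enzymes, or with DMSO vehicle. The macrophages formed 4 groups, all from cocultures: opposite vector or F133V cancer cells, with DMSO or olaparib. Each of the 12 groups had 3 libraries, and no macrophages grown alone were analysed here. Separate cultures are not named for the 3 libraries of a group, nor is it stated whether a genotype is 1 clone, so the p-values rest on a spread between libraries that may be technical. The labels give no dose or time.

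Gene counts per library ran from 32063028 to 43062440 in cancer cells and from 30292309 to 37340425 in macrophages. Spop averaged 111 to 125 CPM in the vector groups and 96.8 to 114 CPM in the F133V groups (CPM are counts-per-million values, TMM-scaled), so its counts were not higher in F133V cells. Counts per gene cannot show the mutation, and whether the introduced gene was counted as mouse Spop is not stated, so they do not check the genotype labels. Of 14 macrophage markers, the cancer libraries held a summed 11.4 to 24.1 CPM and the macrophages 14316 to 16698 CPM. Vector cocultures held 11.9 to 14.7 CPM of these markers and vector monocultures 13.7 to 24.1 CPM, so the marker sum of vector cells was not higher in coculture. Replicates 1 and 2 of vector monoculture with DMSO stood apart with 3.38 and 4.36 CPM of the macrophage lysozyme Lyz2, against 0.700 CPM in replicate 3. Leaving both out ended only the H2-D1 and Tapbp calls for the genotype by olaparib interaction in monoculture (adjusted p = 0.070 and 0.067) among the member calls that used that group. Among 8 epithelial and prostate markers, Krt18 was present in every cancer group (62.4 to 369.7 CPM), Krt8 averaged 22.9 CPM in vector and 0.352 CPM in F133V monoculture with DMSO, and Krt14 had 0 counts in all 24 cancer libraries. The sum of the 8 was 115 to 125 CPM in vector and 93.4 to 95.6 CPM in F133V monoculture with DMSO. In DMSO coculture it was 91.1 to 94.7 and 339 to 364 CPM. With olaparib it was 158 to 161 and 59.3 to 65.9 CPM in monoculture, and 75.8 to 81.5 and 111 to 115 CPM in coculture. The sum of 6 fibroblast markers moved with the groups: with DMSO it was 773 to 799 CPM in vector and 99.1 to 102 CPM in F133V monoculture, and 528 to 557 and 69.8 to 73.6 CPM in coculture, and with olaparib it was 729 to 743 and 159.6 to 169 CPM in monoculture and 608 to 612 and 251 to 257 CPM in coculture. Nearly all of it was Col3a1 and Dcn, Pdgfra had means of 2.99 to 5.38 CPM, Col1a1 and Col1a2 were below 1 CPM in every cancer library, and Thy1 was at 0 in all but 1. The part of these markers in the member results, among them the lower H2-K1 of F133V cells and its rise with olaparib in F133V coculture, was not tested. The RNA Gm26917 took 3.47% to 3.91% of gene counts in F133V cells with DMSO, 0.48% to 1.58% with olaparib and at most 0.269% in vector cells. Its part in the F133V results was not tested.

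Of the 10 genes, 7 lie on mouse chromosome 17 (GRCm38 with GENCODE M21 annotation) in or beside the major histocompatibility complex. Among the class I chains, H2-K1 is ENSMUSG00000061232, chr17:33996017-34000347, minus strand, and H2-D1 is ENSMUSG00000073411, chr17:35262730-35267499, plus strand. B2m is ENSMUSG00000060802, chr2:122147686-122153083, plus strand. Tap1 (ENSMUSG00000037321, chr17:34187553-34197225, plus strand), Psmb8 (ENSMUSG00000024338, chr17:34197721-34201454, plus strand) and Tap2 (ENSMUSG00000024339, chr17:34203527-34216321, plus strand) follow each other, and Psmb9 (ENSMUSG00000096727, chr17:34181987-34187764, minus strand) runs the other way beside Tap1. Tapbp is ENSMUSG00000024308, chr17:33915899-33929292, plus strand. Erap1 is ENSMUSG00000021583, chr13:74639568-74693201, plus strand, and Nlrc5 is ENSMUSG00000074151, chr8:94434356-94527272, plus strand. Counts are per whole gene, over all exons. In the annotated transcripts, 9.63% of the 50-base stretches of H2-K1 and 12.8% of those of H2-D1 also occur in other genes, so reads could be split among class I genes. Exons of 7 members overlap those of another gene (Tap1 and Psmb9 with each other), and whether the counting used strand is not stated, so those counts hold some doubt.

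Promoter stretches of the 3 class I chains are shown because these genes rose together in vector coculture and parted in F133V cells. They come from the RefSeq promoter table (GRCm38.p6, 250 bases before to 50 after a gene's start), which held 8 of the 10 members, all but Tap2 and Nlrc5. Each stretch has 30 bases, written 5′ to 3′ on the gene's strand. Capitals mark letters matching the NF-kB consensus (GGGGATTCCCC and GGAAAGTCCC) or the core of the interferon-stimulated element (GAAA on either side of any 2 bases), or a shorter form GAANNGAAA that was chosen after the sequences were seen (TTTCACTTC is its reverse complement).
H2-K1: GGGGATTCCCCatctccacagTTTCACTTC
H2-D1: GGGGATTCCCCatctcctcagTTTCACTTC
B2m: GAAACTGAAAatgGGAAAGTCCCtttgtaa
The H2-K1 stretch is at chr17:34000429-34000458 on the minus strand, 111 to 82 bases before the start. That of H2-D1 is at chr17:35262923-35262952 on the plus strand, 171 to 142 bases before it, and that of B2m at chr2:122147548-122147577 on the plus strand, 139 to 110 bases before it. These starts are those of RefSeq. The H2-D1 stretch lies within the gene as annotated by GENCODE, which begins at base 35262730. H2-K1 had 2 windows, of which the first listed was used. Counted from 1 at the 5′ end, the H2-K1 and H2-D1 stretches differ at a single base, A18T (H2-K1 first), and share 29 of 30. Both strands of all 32851 windows were searched. The NF-kB consensus was found in 8.46% of them and in 3 of the 8 members, the interferon core in 3.44% and in 2 members (B2m and Erap1), and GAANNGAAA in 7.52% and in 2. In H2-K1 and H2-D1, a pair of NF-kB matches overlaps within the same capitals. CCAAT was found in 37.4% of windows and in 6 members, and TGACG in 20.8% and in 5. The Tap1 and Psmb9 windows share 275 of 300 bases, since their start sites lie 226 bases apart on opposite strands. Their CCAAT matches are the same site, and so are their TGACG matches. The tallies of members for these letters thus count each shared site for both genes. These matches describe letters in the windows only.

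Cancer cells expressed the class I chains, Tapbp and Erap1 but had almost no RNA of Tap1, Tap2, Psmb8 or Psmb9, whereas macrophages expressed all 10 genes. Per kilobase of exon, the order in vector monoculture with DMSO was B2m (221 CPM per kb), H2-K1 (48.7), H2-D1 (28.8), Tapbp (21.2), Erap1 (4.31), Nlrc5 (0.429), Tap2 (0.0761) and Tap1 (0.0305). In macrophages opposite vector cells with DMSO, the same scale gave B2m 865, H2-D1 392, H2-K1 191, Tapbp 60.1, Psmb8 18.1, Erap1 12.6, Tap2 8.88, Nlrc5 8.42, Tap1 6.34 and Psmb9 5.24 CPM per kb. Between these 2 groups the heavy chains stood in opposite order. In F133V monoculture, by contrast, H2-D1 was above H2-K1 as in macrophages (28.5 and 22.3 CPM per kb with DMSO). RAW264.7 comes from BALB/c mice, whose class I alleles differ from those of the C57BL/6 reference, and how that bears on the heavy chain counts was not tested.

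Between vector cancer cells and the macrophages of the same DMSO coculture, with all 36 libraries on 1 scale, all 10 genes were higher in macrophages, where 39.8% of 17295 genes were higher and 42.4% lower. Psmb8 and Psmb9 passed the filter on low counts in this fit only through the macrophage libraries. Their direction was thus fixed beforehand and adds nothing to this tally. B2m read 287 ± 2.21 CPM in cancer cells and 772 ± 6.76 in macrophages (log2 fold change 1.43 ± 0.03, adjusted p = 3.3e-45, n = 3 each, edgeR). H2-K1 differed by 1.63 ± 0.02, H2-D1 by 2.98 ± 0.03, Tapbp by 0.91 ± 0.03, Erap1 by 1.42 ± 0.03 and Nlrc5 by 3.56 ± 0.06 on the log2 scale. Tap1 had 25 counts in the 3 cancer libraries and 3328 in the 3 macrophage libraries, a ratio of 172 on the CPM scale (95% exact interval 116 to 265.5). Tap2 had 45 and 3216, a ratio of 92.1 (68.7 to 127). Psmb8 had 1 count in cancer cells and 5852 in macrophages, a ratio of 7541 (1353 to 297892), and Psmb9 had 0 and 1839. The lower 95% exact bound of the Psmb9 ratio was 641.7, without an upper bound. A floor of 3 counts over the cancer group gave a Psmb9 ratio of 789.9. These intervals cover counting error only. In RNA of a whole culture, fewer cells with a transcript and less of it per cell cannot be told apart.

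**Figure D1:**
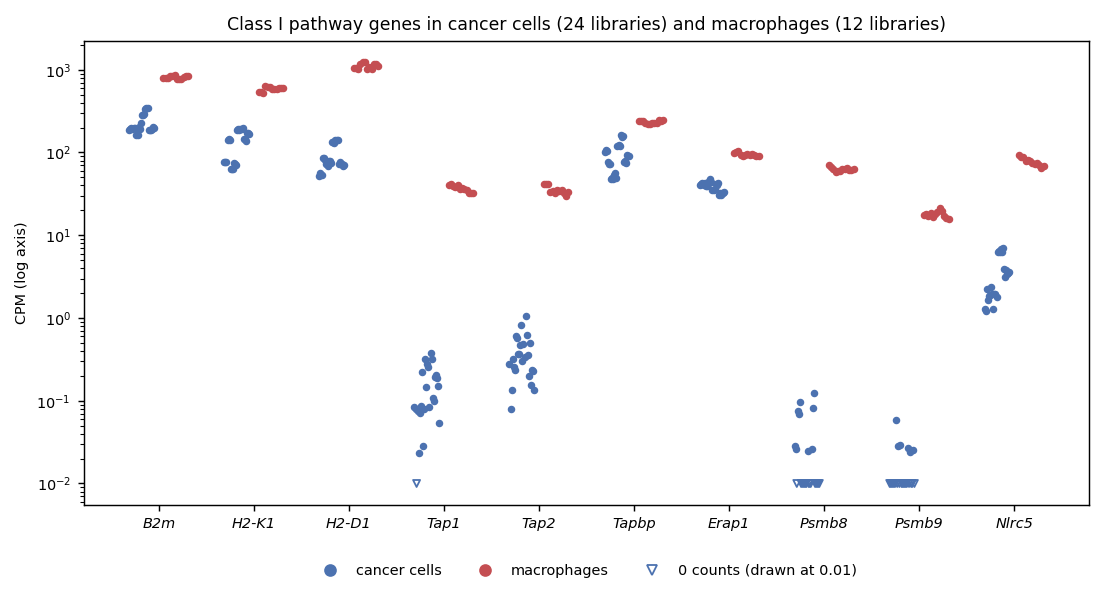
Level of each of the 10 genes in all 24 cancer cell libraries (blue) and all 12 macrophage libraries (red), in CPM on a log axis; 1 point is 1 library and open triangles, drawn at 0.01, are libraries with 0 counts. Psmb8 and Psmb9 sit at or near 0 in cancer cells, while Tap1, Tap2 and Nlrc5 lie well below the macrophage points.

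The light chain B2m rose in vector cells opposite macrophages, while the means of the other 6 groups lay between 170.0 and 209 CPM. With DMSO, the 3 vector libraries read 189.8, 188 and 193 CPM alone and 291, 288 and 294 CPM in coculture. The groups did not overlap, as was so for 51.1% of all genes, and the rise was 1.53-fold (log2 0.61 ± 0.03, adjusted p = 3.9e-18). With olaparib, vector cells read 192, 203 and 197 CPM alone and 339, 351 and 347 CPM in coculture (log2 0.81 ± 0.03, adjusted p = 5.5e-22). The highest group mean of all 8 was this olaparib coculture. F133V cells with DMSO read 169.8, 172 and 168 CPM alone and 196, 203 and 208 in coculture, a rise of 1.19-fold (log2 0.25 ± 0.03, adjusted p = 3.6e-08). That call was lost with scaling by library size alone (log2 0.04, adjusted p = 0.28). F133V monoculture with olaparib held the widest spread, 207, 192 and 229 CPM, and its libraries overlapped those of both F133V cocultures and of vector monoculture with olaparib.

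The heavy chain H2-K1 was lower in F133V cells in each of the 4 matched comparisons with vector cells. In DMSO monoculture the vector libraries read 145, 145 and 139.6 CPM and the F133V libraries 64.9, 65.7 and 65.7 CPM, 2.19-fold lower (log2 −1.13 ± 0.03, adjusted p = 6.7e-31). No F133V library came near the vector range, in a comparison where 70.4% of all genes had no overlap between groups. In DMSO coculture the values were 192, 193 and 189 CPM in vector and 81.6, 82.4 and 80.7 CPM in F133V cells (log2 −1.23 ± 0.03, adjusted p = 6.5e-33). With olaparib in coculture, F133V cells read 143, 148 and 142 CPM, against 197, 195 and 198 in vector cells, and the gap was smaller at 1.36-fold (log2 −0.44 ± 0.02, adjusted p = 7.3e-19). Within F133V coculture, olaparib was thus accompanied by a 1.77-fold higher H2-K1 (log2 0.82 ± 0.03, adjusted p = 7.7e-27), which brought it to the level of untreated vector monoculture, whose libraries it overlapped. In vector cells, coculture raised H2-K1 by 0.42 ± 0.02 with DMSO and 0.19 ± 0.02 with olaparib (log2, adjusted p = 2.1e-17 and 1.3e-08). Olaparib alone, in vector monoculture, moved it to 172, 174 and 169 CPM (log2 0.26 ± 0.02, adjusted p = 2.4e-11).

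H2-D1, the other heavy chain, was lower in F133V than in vector cells in coculture but not in monoculture. In DMSO monoculture vector cells read 72.5, 76.8 and 73.6 CPM and F133V cells 75.0, 74.1 and 71.1 CPM. The groups overlapped and the difference did not pass (log2 −0.02 ± 0.03, adjusted p = 0.65), though it was −0.11 (adjusted p = 0.0049) with scaling by library size alone. With olaparib F133V monocultures were slightly higher (log2 0.14 ± 0.03, adjusted p = 0.00022). In coculture with DMSO, vector cells read 135, 135 and 134 CPM and F133V cells 55.4, 59.9 and 56.2 CPM. Vector cells had thus risen 1.81-fold (log2 0.86 ± 0.03, adjusted p = 1.1e-23) and F133V cells had fallen 1.28-fold (log2 −0.36 ± 0.03, adjusted p = 6.3e-12). The interaction of genotype and coculture was −1.22 ± 0.05, adjusted p = 2e-23 on the log2 scale. With the trends of each library on gene length and GC content removed, the fall in F133V cells shrank to a log2 change of −0.15 and the interaction to −0.98, and both were still called. With olaparib, F133V cells in coculture read 87.4, 86.9 and 81.0 CPM, a 1.49-fold rise over DMSO (log2 0.57 ± 0.03, adjusted p = 2.7e-18) that was 0.31 with those trends removed. F133V cells with olaparib changed little between monoculture (79.9, 79.9 and 76.3 CPM) and coculture (log2 0.11 ± 0.03, adjusted p = 0.0032), and that call was lost with scaling by library size alone (log2 0.04, adjusted p = 0.37).

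**Figure D2:**
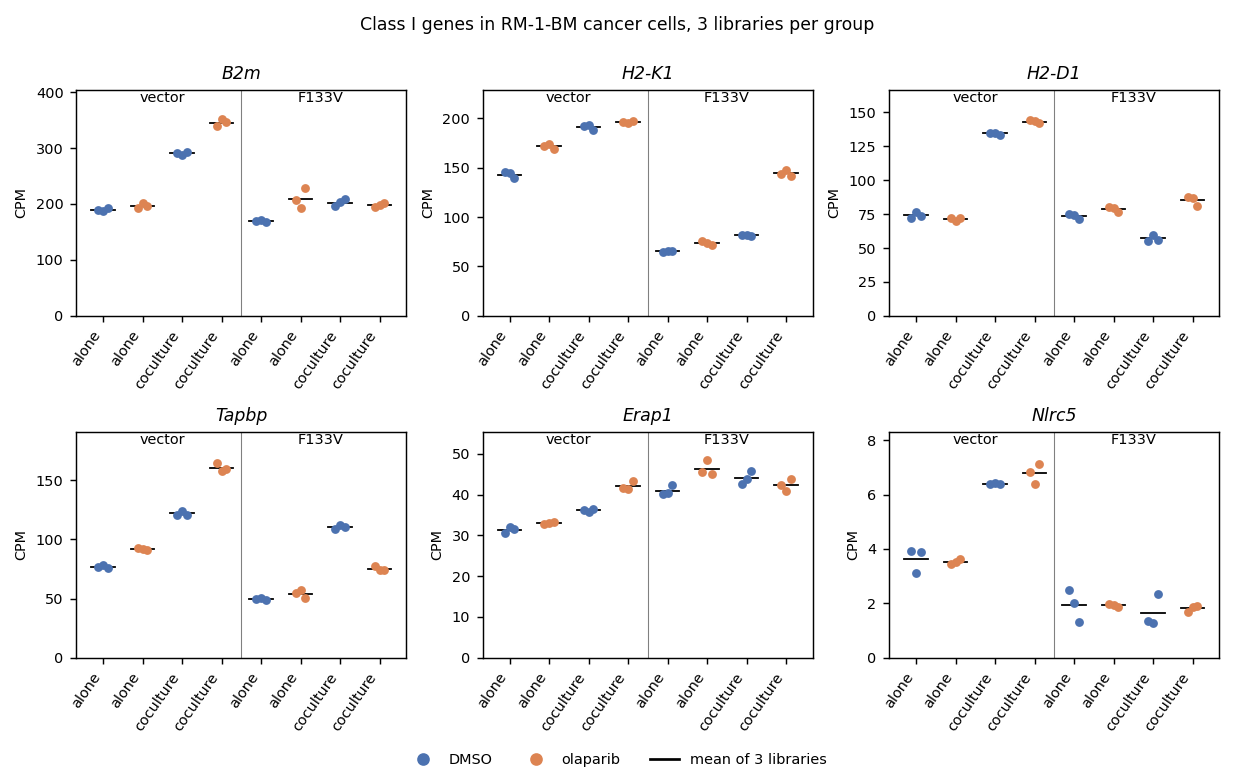
CPM of 6 genes in the 8 cancer cell groups, vector on the left and F133V on the right of each panel, DMSO in blue and olaparib in orange; points are the 3 libraries of a group and bars their mean. In vector cells all 6 genes are higher in coculture than alone, while in F133V cells H2-D1 is lower in coculture with DMSO and Nlrc5 has means of 1.66 to 1.94 CPM.

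The ratio of H2-K1 to H2-D1 counts therefore moved between groups. In monoculture with DMSO it was 1.93 ± 0.0684 in vector and 0.892 ± 0.0298 in F133V cells (SD, n = 3). In coculture with DMSO it was 1.42 ± 0.00914 in vector and 1.43 ± 0.0497 in F133V cells, with overlapping libraries. Olaparib gave 2.41 ± 0.0839 in vector monoculture, 0.937 ± 0.00675 in F133V monoculture, 1.37 ± 0.0171 in vector coculture and 1.70 ± 0.0555 in F133V coculture. These ratios compare counts of a pair of genes of nearly the same exon length (2938 and 2579 bases). All 4 macrophage groups had ratios from 0.511 to 0.555.

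**Figure D3:**
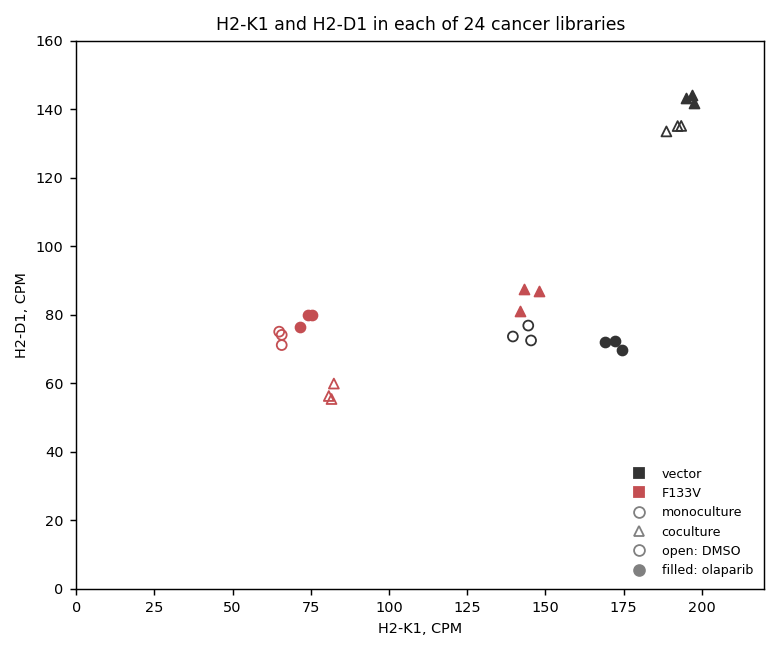
H2-K1 (horizontal) against H2-D1 (vertical) in each of the 24 cancer cell libraries, in CPM; black is vector, red F133V, circles monoculture, triangles coculture, open DMSO and filled olaparib. Vector cocultures lie at the upper right, F133V monocultures at the left, and F133V coculture moves from 57.2 to 85.1 CPM of H2-D1 and from 81.6 to 144 CPM of H2-K1 with olaparib.

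Among the transport and loading genes, Tapbp was called in each of the 12 comparisons of a pair of cancer cell groups. With DMSO it read 76.3, 78.4 and 76.2 CPM in vector monoculture and 121, 124 and 121 in vector coculture (log2 0.67 ± 0.03, adjusted p = 2.6e-20). F133V cells started lower, at 49.8, 50.5 and 49.0 CPM, and rose 2.22-fold to 109, 113 and 110.2 in coculture (log2 1.15 ± 0.03, adjusted p = 9.5e-28). That was its largest coculture response in any of the 4 settings. Olaparib moved Tapbp in opposite directions in the 2 cocultures. It rose to 165, 157 and 159 CPM in vector cells (log2 0.39 ± 0.03, adjusted p = 1.3e-13) and fell to 77.8, 73.9 and 74.0 CPM in F133V cells (log2 −0.56 ± 0.03, adjusted p = 8e-19), with an interaction of −0.95 ± 0.04, adjusted p = 1.7e-21. F133V cells were lower than vector cells in monoculture (log2 −0.63 ± 0.03 with DMSO and −0.77 ± 0.03 with olaparib) and in olaparib coculture (log2 −1.09 ± 0.03, adjusted p = 3.4e-28). The small difference in DMSO coculture (log2 −0.14 ± 0.03, adjusted p = 6.4e-05) turned to 0.09 with length and GC trends removed (adjusted p = 0.0032), so its direction depended on this setting. Its rise with olaparib in F133V monoculture (log2 0.11 ± 0.04, adjusted p = 0.012) had overlapping groups and was lost without olaparib replicate 2 (0.07, adjusted p = 0.12).

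Erap1, the trimming peptidase, was higher in F133V than in vector cells in 3 of the 4 matched comparisons. It read 30.5, 32.1 and 31.5 CPM in vector and 40.1, 40.4 and 42.3 CPM in F133V monoculture with DMSO (log2 0.38 ± 0.04, adjusted p = 3e-11). These groups did not overlap, as was so for 70.4% of all genes. In monoculture with olaparib the difference was 0.49 ± 0.04, adjusted p = 2.1e-14. In DMSO coculture it was 0.28 ± 0.04, adjusted p = 2.4e-08, and 0.03 (adjusted p = 0.53) with scaling by library size alone. In olaparib coculture vector cells read 41.8, 41.5 and 43.3 CPM and F133V cells 42.3, 40.8 and 43.9 CPM, which overlapped (log2 0.01 ± 0.04, adjusted p = 0.91). Coculture raised it in vector cells by 0.21 ± 0.04 with DMSO and 0.35 ± 0.04 with olaparib (log2, adjusted p = 3.3e-05 and 5.4e-10). In F133V cells the coculture change was 0.10 ± 0.04, adjusted p = 0.017 with DMSO, which reversed to −0.11 (adjusted p = 0.014) when libraries were scaled by size alone and lost its call without F133V monoculture replicate 1 or 2 or coculture replicate 3 (adjusted p = 0.075, 0.066 and 0.12), as it did with no filter, with length and GC trends removed and with only the groups compared (adjusted p = 0.13 to 0.22).

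Tap1 and Tap2, which form the peptide pump, were near the limit of detection in every cancer group. Over the 24 libraries Tap1 had 137 counts in all, at most 15 in a library and 0 in 1 library, and Tap2 had 348 counts, from 3 to 41 per library. Tap1 read 0.280, 0.257 and 0.0854 CPM in vector and 0.0898, 0.0835 and 0 CPM in F133V coculture with DMSO, and 0.388, 0.319 and 0.110 and 0.0758, 0.0235 and 0.0724 CPM with olaparib. The second pair of groups did not overlap (log2 −2.21 ± 0.67, adjusted p = 0.0044), while the first did (log2 −1.74 ± 0.74, adjusted p = 0.031). Of all genes, 65.7% had no overlap in the second comparison and 80.1% in the first. Tap1 would not have passed the filter on low counts without the vector coculture libraries, where its means were highest. Its lower reading in F133V coculture was thus largely fixed beforehand. The DMSO call was lost without vector replicate 1, vector replicate 2 or F133V replicate 3 (adjusted p = 0.10, 0.089 and 0.12). Tap2 read 0.234, 0.229 and 0.134 CPM in vector monoculture with olaparib and 1.06, 0.638 and 0.357 CPM in the matching coculture (log2 1.76 ± 0.43, adjusted p = 0.00083). In F133V cells Tap2 went the other way with DMSO, from 0.626, 0.591 and 0.381 CPM alone to 0.299, 0.0835 and 0.142 CPM in coculture (log2 −1.59 ± 0.49, adjusted p = 0.004). The lower Tap2 of F133V cells in olaparib coculture (log2 −1.31 ± 0.40, adjusted p = 0.0048) was not called without vector replicate 1 (−0.85, adjusted p = 0.11), and that in DMSO coculture (adjusted p = 0.045) was lost in 8 alternatives, among them leaving out vector replicate 2 or 3 or F133V replicate 2 or 3 (adjusted p = 0.17, 0.052, 0.22 and 0.10). The higher Tap2 of F133V monoculture with olaparib (log2 1.46 ± 0.45, adjusted p = 0.0045) was lost without F133V replicate 3 (1.07, adjusted p = 0.063).

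The immunoproteasome subunits Psmb8 and Psmb9 did not pass the filter on low counts in cancer cells and were not tested there. Psmb8 had 22 counts over the 24 cancer libraries, with 0 in 15 of them and at most 5 in one. The 3 libraries of F133V coculture with olaparib held 3, 3 and 4 of these counts, and vector monoculture with DMSO held 5 in replicate 1 and 0 in the others. That replicate 1 is among the libraries set apart above by their Lyz2 level, and the source of its Psmb8 counts was not tested. Psmb9 had 7 counts over the 24 libraries, with 0 in 18. In macrophages the lowest library held 1754 counts of Psmb8 and 491 of Psmb9. The constitutive subunits that the inducible ones replace were present in cancer cells: Psmb5 averaged 47.3 CPM, Psmb6 65.2 CPM and Psmb7 88.0 CPM in vector monoculture with DMSO. Psmb10, the inducible subunit that takes the place of Psmb7, was also present, at 9.31 CPM there and 17.5 CPM in vector coculture with olaparib.

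Nlrc5, the transactivator, was lower in F133V than in vector cells in all 4 matched comparisons and responded to coculture in vector cells. With DMSO, vector cells read 3.94, 3.11 and 3.89 CPM alone and 6.40, 6.44 and 6.38 CPM in coculture (log2 0.82 ± 0.12, adjusted p = 7.9e-07). The coculture values were nearly identical and all above the monoculture values, where 51.1% of all genes had no overlap between groups. F133V cells read 2.48, 2.03 and 1.32 CPM alone and 1.35, 1.28 and 2.35 CPM in coculture, with overlap (log2 −0.26 ± 0.19, adjusted p = 0.21). Without F133V coculture replicate 3, the highest of its group, the change was −0.57 (adjusted p = 0.0095), and without F133V monoculture replicate 3 it was −0.47 (adjusted p = 0.023). F133V cells were 1.87-fold lower than vector cells in DMSO monoculture (log2 −0.90 ± 0.15, adjusted p = 2.5e-06) and 3.95-fold lower in DMSO coculture (log2 −1.98 ± 0.15, adjusted p = 5e-15). With olaparib the coculture difference was −1.90 ± 0.14, adjusted p = 4.5e-15. Olaparib itself gave no call for Nlrc5 in any of the 4 cancer settings, with log2 changes of −0.04, 0.08, −0.01 and 0.16 and SEs of 0.11 to 0.18. The last of these was 0.48 (adjusted p = 0.024) without F133V coculture replicate 3 of the DMSO group. Across the 8 cancer group means, log2 CPM of Nlrc5 had a Pearson r of 0.82 with H2-K1, 0.82 with H2-D1, 0.80 with B2m, 0.70 with Tapbp and −0.48 with Erap1. These are descriptions over 8 points that share libraries and scaling.

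Set side by side, the comparisons of genotype asked how F133V and vector cells differed in each setting. The 8 members that passed the filter are counted; Psmb8 and Psmb9 are not. In DMSO monoculture 4 fell and 1 rose, where among all 15962 genes tested 33.7% rose and 34.0% fell, and the median of the 8 was −0.31 against 0.0013 over all genes. In olaparib monoculture 3 fell and 4 rose (34.3% rose and 33.2% fell of all genes; medians 0.11 and 0.012). One of the rises, B2m (log2 0.09 ± 0.03, adjusted p = 0.023), had overlapping groups and was lost without F133V replicate 3 (0.02, adjusted p = 0.58) or vector replicate 1 or 3 (adjusted p = 0.11 and 0.055). In DMSO coculture 7 fell and Erap1 rose (37.4% rose and 42.0% fell of all genes; medians −1.17 and −0.059). In olaparib coculture 7 fell and Erap1 did not pass (28.8% rose and 31.2% fell of all genes; medians −0.95 and −0.0046). The 7 falling members in both cocultures were B2m, H2-K1, H2-D1, Tap1, Tap2, Tapbp and Nlrc5. Tap1 would not have passed the filter on low counts without the vector coculture libraries, where its means were highest. Its fall was thus largely fixed beforehand and adds nothing to these tallies and medians. From 60.0% to 79.5% of all genes differed by genotype in each setting, so a call by itself sets no member apart. Scaling by library size alone moved the share of calls that were higher in DMSO coculture from 47.1% to 34.7%.

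The comparisons of coculture with monoculture asked what changed in cancer cells opposite macrophages. They use the same libraries as the comparisons of genotype. In vector cells with DMSO, 6 of the 8 members rose (all but Tap1 and Tap2), where among all genes 23.4% rose and 18.6% fell, and the median of the 8 was 0.52 against 0.0042. With olaparib 7 rose (all but Tap1), against 25.5% rose and 18.5% fell of all genes (medians 0.87 and 0.0048). In F133V cells with DMSO 4 rose (B2m, H2-K1, Tapbp and Erap1) and 2 fell (H2-D1 and Tap2), against 35.6% rose and 34.8% fell of all genes (medians −0.08 and 0.0066). With olaparib 3 rose (H2-K1, H2-D1 and Tapbp) and 3 fell (B2m, Tap2 and Erap1), against 26.7% rose and 26.5% fell of all genes (medians −0.086 and −0.0094). The rise of H2-K1 in that last setting was its largest coculture response (log2 0.97 ± 0.03, adjusted p = 2.6e-28). The B2m fall there was −0.08 ± 0.03 with overlapping groups (adjusted p = 0.048). It turned to 0.04 with length and GC trends removed, and its call was lost without monoculture replicate 3 (−0.01, adjusted p = 0.80) or any of the coculture replicates (adjusted p = 0.086 to 0.15). The Tap2 fall (log2 −1.01 ± 0.42, adjusted p = 0.042) was lost without monoculture replicate 3 or any of the coculture replicates (adjusted p = 0.051 to 0.30). Scaling by library size alone moved the share of calls that were higher from 55.7% to 42.2% in vector cells with DMSO, from 50.6% to 34.6% in F133V cells with DMSO and from 50.2% to 37.4% in F133V cells with olaparib. As given above, macrophage marker sums were not higher in cocultured than in monocultured vector cells. In F133V cells with DMSO they were higher in coculture, at 12.8 to 14.1 CPM against 11.4 to 12.3 CPM alone. With olaparib they were lower in coculture, at 11.5 to 12.4 CPM against 13.5 to 14.0 CPM alone. The part of these differences in the member results was not tested.

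Whether the response to coculture differed by genotype was tested directly as an interaction. With DMSO 5 of the 8 members had a lower response in F133V cells and 1, Tapbp, a higher one, where 30.2% of all genes were higher and 32.5% lower. With olaparib 7 were lower and 1, H2-K1, higher, where 21.8% of all genes were higher and 25.1% lower. Tap1 is among the 7, and it passed the filter on low counts only with the vector coculture libraries. Its direction was thus largely fixed beforehand and adds nothing to that tally. Nlrc5 had an interaction of −1.08 ± 0.22, adjusted p = 6.4e-05 with DMSO and −1.03 ± 0.22, adjusted p = 0.00011 with olaparib. B2m had −0.36 ± 0.05, adjusted p = 2.7e-08 and −0.89 ± 0.05, adjusted p = 1.2e-18. H2-K1 differed in direction between drugs, with −0.10 ± 0.04, adjusted p = 0.018 in DMSO and 0.78 ± 0.04, adjusted p = 9.5e-21 in olaparib. The DMSO value was not called with RLE scaling, protein-coding genes only or DESeq2 (adjusted p = 0.17 to 0.20) and turned to 0.11 (adjusted p = 0.0054) with length and GC trends removed, while the olaparib value kept its sign and call in every alternative. With DMSO, scaling by library size alone moved the share of all calls that were higher from 48.1% to 35.7%.

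The comparisons of olaparib with DMSO asked how the drug's presence changed these genes in each setting, and the changes of both heavy chains were largest in F133V coculture. In vector monoculture 2 of the 8 rose, H2-K1 and Tapbp, where among all genes 15.3% rose and 15.1% fell. In vector coculture 4 rose (B2m, H2-D1, Tapbp and Erap1), against 12.6% rose and 10.9% fell of all genes. In F133V monoculture 5 rose (the 3 chains, Tapbp and Erap1), against 18.2% rose and 17.9% fell of all genes, with log2 changes from 0.10 to 0.30. With only the groups compared in the fit, 3 of these were called, and H2-D1 lost its call without DMSO replicate 3 or olaparib replicate 1 (adjusted p = 0.091 and 0.059). The H2-D1 rise in vector coculture (0.09 ± 0.03, adjusted p = 0.024) was lost on leaving out any of 5 of its 6 libraries (adjusted p = 0.051 to 0.081). In F133V coculture 2 rose, H2-K1 and H2-D1, and 1, Tapbp, fell, against 39.3% rose and 37.0% fell of all genes. B2m did not pass there (log2 −0.03 ± 0.03, adjusted p = 0.42); it was called higher with scaling by library size alone (0.18) and with length and GC trends removed (0.08). The medians of the 8 members over these 4 comparisons were 0.0058, 0.23, 0.14 and 0.066, against 0.0024, 0.0014, 0.0046 and 0.025 over all genes. The genotype by olaparib interaction called 2 members higher and 1 lower in monoculture (13.3% and 10.9% of all genes), and 2 higher and 3 lower in coculture (35.4% and 32.0%). H2-K1 (0.79 ± 0.04, adjusted p = 1.6e-21) and H2-D1 (0.48 ± 0.04, adjusted p = 2.9e-12) were the higher ones in coculture. Scaling by library size alone moved the share of calls that were higher from 50.5% to 74.6% for F133V monoculture and from 51.5% to 63.5% for F133V coculture. For the genotype by olaparib interaction it moved from 54.9% to 82.7% in monoculture and from 52.6% to 65.9% in coculture.

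**Figure D4:**
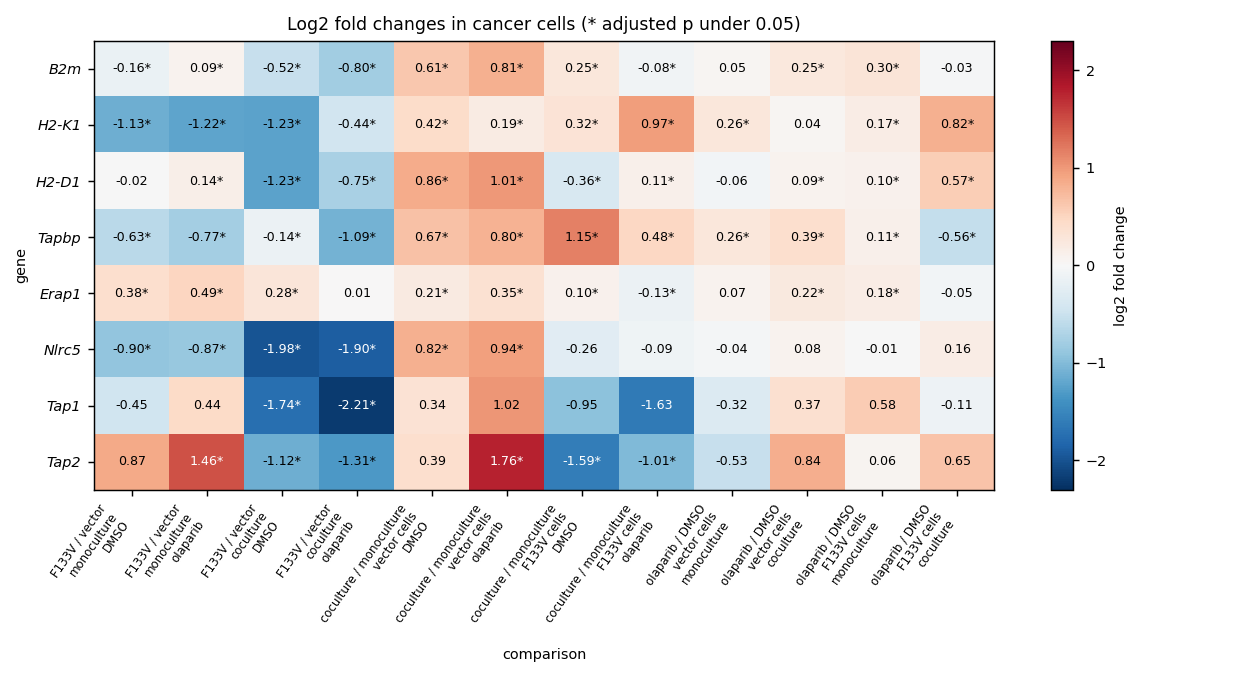
Log2 fold changes of the 8 tested members (vertical) in the 12 comparisons of 2 cancer cell groups (horizontal), red for higher and blue for lower in the group named first; an asterisk marks an adjusted p under 0.05. The coculture columns of vector cells are red for all 8 genes, while the genotype columns in coculture are blue for all but Erap1. The direction of Tap1 in these columns was largely fixed beforehand by the filter on low counts.

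Other genes of the pathway, in lists chosen for function, were read in the same comparisons. Of 13 other class I heavy chain genes 6 passed the filter. In vector coculture with DMSO 4 rose, where 23.4% of all genes did (median of the 6, 0.67), among them H2-T22 (log2 0.62 ± 0.05, adjusted p = 2e-13), H2-T23 (0.71 ± 0.07), which encodes the chain that presents leader peptides to natural killer cells, and H2-M3 (0.97 ± 0.15), which presents formylated peptides. In F133V coculture with DMSO 4 fell, where 34.8% of all genes did (median −0.85), among them H2-T22 (log2 −0.69 ± 0.06, adjusted p = 4.4e-13), H2-M3 (−0.91 ± 0.18) and Cd1d1 (−0.88 ± 0.23), a lipid-presenting chain. Olaparib in F133V coculture raised all 6, where 39.3% of all genes rose and 76.3% were called (median 1.60), with H2-T23 at 1.69 ± 0.11, adjusted p = 2e-17 and H2-T22 at 1.03 ± 0.06. In this list the fall in F133V coculture and the rise with olaparib share the DMSO coculture libraries. H2-T22 read 27.3 CPM in vector and 26.3 CPM in F133V monoculture with DMSO, and 42.1 and 16.3 CPM in coculture. The difference between genotypes did not pass in monoculture (log2 −0.05 ± 0.05, adjusted p = 0.39) and did in coculture (−1.36 ± 0.06, adjusted p = 1.7e-23).

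Of 7 loading chaperones and folding enzymes, all 7 rose in vector coculture with DMSO, where 23.4% of all genes did (median 0.51) and 5 rose in F133V coculture, where 35.6% of all genes did (median 0.27). Calr, the calreticulin of the peptide loading complex, rose by 1.44 ± 0.02, adjusted p = 5.3e-36 in vector and 0.32 ± 0.02 in F133V coculture, and Pdia3, the disulfide isomerase bound to Tapbp, by 1.02 ± 0.02 and 0.21 ± 0.02. Tapbpl, a Tapbp relative that edits peptides, rose by 0.37 ± 0.05 in vector coculture and had a log2 change of −0.04 ± 0.06, adjusted p = 0.58 in F133V coculture. With scaling by library size alone the F133V change of Tapbpl was −0.25 (adjusted p = 0.00027) and with length and GC trends removed it was 0.17 (adjusted p = 0.0074), and the F133V rise of Pdia3 was lost with library size scaling (0.00020, adjusted p = 1). Of 9 other proteasome subunits and activators, 6 rose in vector coculture with DMSO, while 3 rose and 5 fell in F133V coculture (23.4% rose and 18.6% fell of all genes in the former, 35.6% rose and 34.8% fell in the latter). Psme2, a subunit of the interferon-induced activator, rose by 0.48 ± 0.04 in vector and fell in F133V coculture (log2 −0.77 ± 0.04, adjusted p = 6.3e-21), and Psmb10 did likewise (0.33 ± 0.08 and −0.79 ± 0.10, adjusted p = 2.9e-09). The Psmb10 rise in vector cells was lost without vector monoculture replicates 1 and 2 (0.29, adjusted p = 0.051).

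Among 23 regulators of class I transcription, of which 21 passed the filter, 12 rose and 3 fell in vector coculture with DMSO (against 23.4% rose and 18.6% fell of all genes, median of the list 0.20), and 6 rose and 12 fell in F133V coculture (against 35.6% rose and 34.8% fell of all genes, median −0.16). Rfx5, a subunit of the complex through which Nlrc5 reaches the promoter, was lower in F133V coculture than in vector coculture (log2 −1.60 ± 0.07, adjusted p = 6.1e-23), and Rela, an NF-kB subunit, was higher (log2 1.00 ± 0.04, adjusted p = 4.1e-25). Ifnb1 had 0 counts in all 36 libraries and Ifng 1 count in all. Ciita, the class II counterpart of Nlrc5, had 74 counts over the 24 cancer libraries. Over the 8 cancer group means, the genes whose log2 CPM came closest to the mean profile of the 8 members that passed the filter, among genes averaging at least 5 CPM, were Aph1a (Pearson r 0.98), Hadha (0.97), Slc25a51 (0.97), Bcl3 (0.97), Cox7b (0.96) and Coq6 (0.96). These are the highest of all such genes over only 8 points, and Aph1a spanned just 0.27 log2 units. The members themselves had r from 0.0044 (Erap1) to 0.97 (B2m) with this profile. Tap1 and Tap2, near the limit of detection, weighed as much in it as the others.

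In macrophages all 10 members were expressed in each group, and the partner's genotype changed them by small amounts. With DMSO, 5 of 10 rose opposite F133V cells (Tap1, Tap2, Tapbp, Erap1 and Nlrc5) and 2 fell (H2-K1 and Psmb9), where among 14262 genes 25.5% rose and 28.1% fell. The median of the 10 was 0.074 against −0.012 over all genes. Nlrc5 read 72.6, 69.7 and 72.2 CPM opposite vector and 88.3, 83.5 and 84.3 CPM opposite F133V cells (log2 0.26 ± 0.03, adjusted p = 4.8e-11). These groups did not overlap, as was so for 57.5% of all genes. Tap2 read 34.3, 32.8 and 33.6 and 39.4, 40.2 and 40.0 CPM (log2 0.25 ± 0.04, adjusted p = 3.9e-07), and H2-K1 559.5, 566 and 557 and 517, 519 and 502 CPM (log2 −0.13 ± 0.02, adjusted p = 7.7e-10). With olaparib in both cultures 5 rose (the 3 chains, Tap1 and Nlrc5) and 1, Tapbp, fell, against 17.6% rose and 17.6% fell of all genes (medians 0.049 and 0.001). Nlrc5 was again higher opposite F133V cells, at 0.22 ± 0.03, adjusted p = 1.6e-08, beside Tap1 at 0.24 ± 0.04, adjusted p = 3.3e-06. The B2m (0.04 ± 0.02) and H2-K1 (0.05 ± 0.02) rises there were lost without the filter on low counts (adjusted p = 0.13 and 0.086) and, respectively, on leaving out any of 4 and any of 3 of the 6 libraries (adjusted p up to 0.16 and 0.13). With DMSO, the Erap1 call was lost without F133V-partner replicate 3 (adjusted p = 0.051) and that of Psmb9 without vector-partner replicate 2 (adjusted p = 0.056).

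Olaparib raised the class I chains and lowered Tap2 and Nlrc5 in macrophages opposite either partner. Opposite vector cells 4 of 10 rose (the 3 chains and Tapbp) and 4 fell (Tap1, Tap2, Psmb9 and Nlrc5), where among all genes 14.0% rose and 14.5% fell (medians −0.046 and −0.00049). Opposite F133V cells 3 rose (the 3 chains) and 5 fell (Tap2, Tapbp, Erap1, Psmb8 and Nlrc5), against 28.5% rose and 29.0% fell of all genes (medians −0.095 and 0.00067). H2-D1 read 998, 1006 and 970.3 CPM with DMSO and 1132, 1199 and 1186 CPM with olaparib opposite F133V cells (log2 0.24 ± 0.02, adjusted p = 9.9e-16), and 989, 1046 and 996 and 1113, 1135 and 1070.2 CPM opposite vector cells (log2 0.13 ± 0.02, adjusted p = 3.2e-07). Neither pair overlapped, as was so for 61.2% of all genes opposite F133V cells and 39.3% opposite vector cells. H2-K1 rose by 0.22 ± 0.02, adjusted p = 1.4e-17 opposite F133V and by 0.05 ± 0.02, adjusted p = 0.016 opposite vector cells, and the latter turned to −0.03 when libraries were scaled by size alone and lost its call without DMSO replicate 1 or 3 or olaparib replicate 2 (adjusted p = 0.053, 0.069 and 0.072). The Tap2 fall opposite vector cells (−0.13 ± 0.04) was lost without DMSO replicate 1 or olaparib replicate 2 (adjusted p = 0.068 and 0.16). Tapbp moved in opposite directions, to 237, 234 and 237 CPM from 219, 217 and 217 opposite vector cells (log2 0.11 ± 0.02, adjusted p = 2e-06) and to 219, 212 and 213 from 233, 232 and 230.2 opposite F133V cells (log2 −0.11 ± 0.02, adjusted p = 9.8e-07). The former was lost with scaling by library size (0.03, adjusted p = 0.18), and so was the B2m rise opposite vector cells (0.10 ± 0.02, then 0.02 with adjusted p = 0.48). Scaling by library size alone moved the share of calls that were higher from 49.1% to 14.7% opposite vector and from 49.6% to 36.7% opposite F133V cells, and that of the partner comparisons from 47.5% to 59.3% with DMSO and from 49.9% to 75.6% with olaparib. The interaction of partner and olaparib called 3 members higher and 3 lower (25.7% and 23.7% of all genes), with Tapbp at −0.22 ± 0.03, adjusted p = 2.8e-10 and Psmb9 at 0.31 ± 0.08, adjusted p = 0.0012. Psmb9 read 18.3, 20.3 and 18.9 CPM with DMSO and 16.5, 15.5 and 14.9 with olaparib opposite vector cells, and 16.9, 17.2 and 16.5 and 17.9, 16.0 and 17.1 opposite F133V cells.

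**Figure D5:**
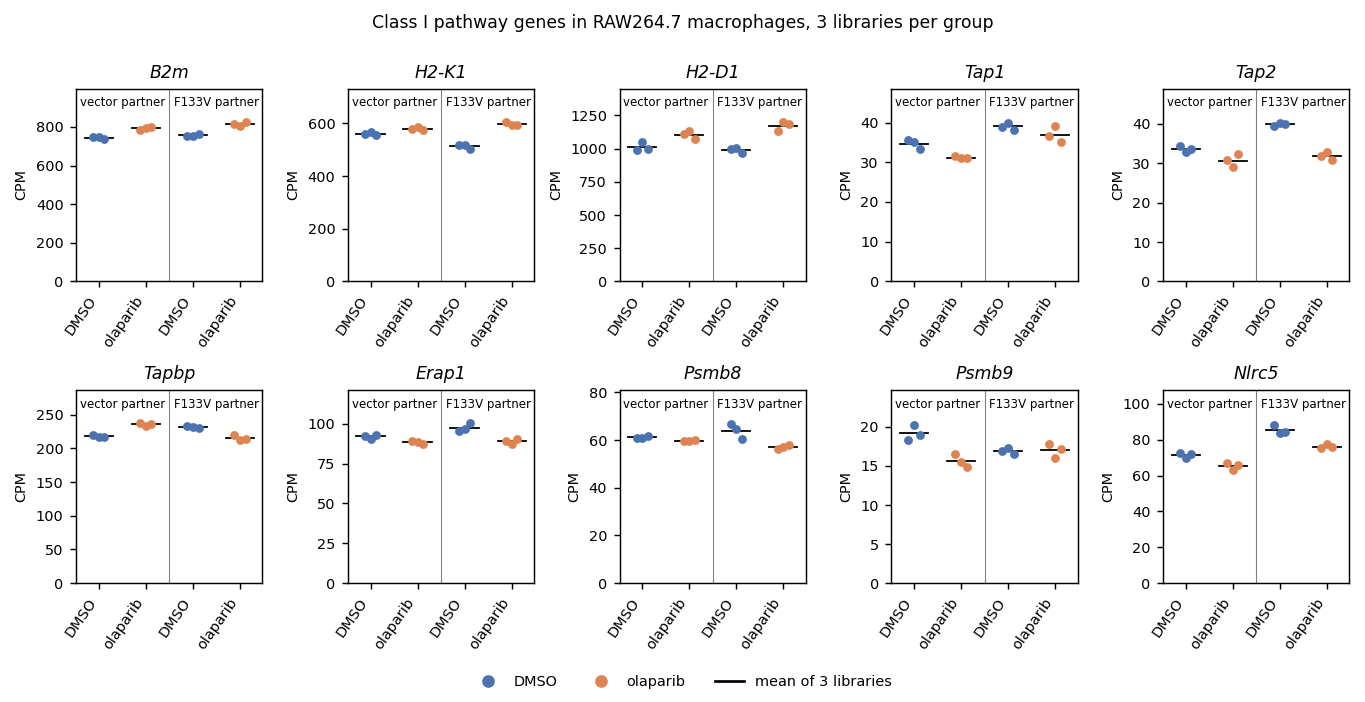
CPM of the 10 genes in the 4 macrophage groups, vector partner on the left and F133V partner on the right of each panel, DMSO in blue and olaparib in orange; points are the 3 libraries of a group and bars their mean. All axes start at 0, and the differences between groups are small beside the levels: Nlrc5 runs from a mean of 65.3 to 85.4 CPM, and H2-D1 from 991 to 1172 CPM.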

How the data were processed

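RNA-seq counts of 36 libraries in 12 groups of 3 were used. The authors deposited raw counts per gene for each library, and the submitters' processing notes name STAR, TopHat, HTSeq, DESeq2 and GRCm38. The aligner behind these files, tool versions and use of strand were not given in the sources used here. The 5 summary lines of each file (no feature, ambiguous and others) were left out of library sizes; reads without a feature were 17.1% to 21.5% of their total. Groups came from the labels. For macrophages the entry naming the group was used, since the genotype entry does not describe them and 3 titles omit the partner.

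Counts were tested with edgeR 4.0.16 in R 4.3.3: TMM scaling, filterByExpr with a minimum count of 10, quasi-likelihood F tests and Benjamini-Hochberg adjustment over all genes tested, with 0.05 as the threshold. Cancer cells (15962 genes, 16 residual degrees of freedom, common BCV 2.61%) and macrophages (14262 genes, 8 degrees of freedom, 1.81%) were fitted apart. A fit of all 36 libraries (17295 genes, 24 degrees of freedom) compared the cell types. The common BCV is the edgeR estimate of the spread between libraries of a group, which may be technical here. CPM are TMM-scaled, and fold changes are fitted log2 values ± SE. Alternatives were RLE (DESeq2 size factors) and library size scaling, no filter, protein-coding genes only, removal of length and GC trends, only the groups compared, a replicate block, DESeq2 1.42.0, and leaving out libraries. The scripts were tested on simulated data with known changes. No 2 libraries of a group were identical.

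Gene positions and lengths come from GENCODE M21 (GRCm38) and promoters from RefSeq (GRCm38.p6). Figures used Python 3.11.15 and matplotlib 3.10.9. The members and lists were chosen with earlier results of these data known. The genes that could be named beside the 10 members were 19 genes of the pathway and its regulators, up to 4 called genes with the smallest adjusted p per list and comparison, the 6 genes most alike in pattern, and cell type markers. Ifng and Gm26917 were named after their values were seen.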

Additional observations from a re-analysis of the deposited data

Results flagged for a closer look

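In 28 cases an interaction term in edgeR, with p-values adjusted over all genes, found that a member's response to coculture or olaparib differed between vector and F133V cells, or between macrophages opposite them. For coculture, 6 of 8 members were called with DMSO and 8 of 8 with olaparib, against 62.7% and 46.9% of all genes. For olaparib, 3 of 8 were called in monoculture and 5 of 8 in coculture, against 24.2% and 67.4%. In macrophages 6 of 10 were called, against 49.3%. A call by itself thus sets no member apart. Each value is a log2 difference with its SE, the response in F133V cells (or opposite them) minus that in vector cells, and the adjusted p stands in brackets. For coculture against monoculture with DMSO the differences were B2m −0.36 ± 0.05 (adjusted p = 2.7e-08), H2-K1 −0.10 ± 0.04 (adjusted p = 0.018), H2-D1 −1.22 ± 0.05 (adjusted p = 2e-23), Tap2 −1.98 ± 0.66 (adjusted p = 0.0089), Tapbp 0.49 ± 0.05 (adjusted p = 5.2e-12) and Nlrc5 −1.08 ± 0.22 (adjusted p = 6.4e-05). With olaparib they were B2m −0.89 ± 0.05 (adjusted p = 1.2e-18), H2-K1 0.78 ± 0.04 (adjusted p = 9.5e-21), H2-D1 −0.89 ± 0.04 (adjusted p = 1.6e-19), Tap1 −2.65 ± 0.93 (adjusted p = 0.018), Tap2 −2.77 ± 0.60 (adjusted p = 0.00019), Tapbp −0.32 ± 0.05 (adjusted p = 1.5e-07), Erap1 −0.48 ± 0.05 (adjusted p = 5.4e-10) and Nlrc5 −1.03 ± 0.22 (adjusted p = 0.00011).

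For olaparib against DMSO in monoculture they were B2m 0.25 ± 0.05 (adjusted p = 0.00015), H2-D1 0.16 ± 0.05 (adjusted p = 0.009) and Tapbp −0.14 ± 0.05 (adjusted p = 0.022). In coculture they were B2m −0.28 ± 0.05 (adjusted p = 2.3e-06), H2-K1 0.79 ± 0.04 (adjusted p = 1.6e-21), H2-D1 0.48 ± 0.04 (adjusted p = 2.9e-12), Tapbp −0.95 ± 0.04 (adjusted p = 1.7e-21) and Erap1 −0.27 ± 0.05 (adjusted p = 2.1e-05). In macrophages, for olaparib opposite F133V against vector cells, they were H2-K1 0.18 ± 0.02 (adjusted p = 3.4e-09), H2-D1 0.11 ± 0.03 (adjusted p = 0.00052), Tap2 −0.20 ± 0.06 (adjusted p = 0.0037), Tapbp −0.22 ± 0.03 (adjusted p = 2.8e-10), Psmb8 −0.13 ± 0.04 (adjusted p = 0.012) and Psmb9 0.31 ± 0.08 (adjusted p = 0.0012).

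With DMSO, coculture raised H2-D1 in vector cells and lowered it in F133V cells, while Tapbp rose in both and more in F133V cells. The Tap1 value with olaparib was lost without F133V monoculture replicate 2, vector coculture replicate 1 or F133V coculture replicate 2 (adjusted p = 0.12, 0.059 and 0.057). Its direction was largely fixed beforehand, since Tap1 passed the filter on low counts only with the vector coculture libraries. Tapbp for olaparib in monoculture was lost with library size scaling (−0.05, adjusted p = 0.50), with only the groups compared (adjusted p = 0.057) and on leaving out any of 4 of 12 libraries (adjusted p = 0.050 to 0.12), H2-K1 with DMSO on leaving out any of 3 (adjusted p = 0.051 to 0.058) and with RLE scaling, protein-coding genes only or DESeq2 (adjusted p = 0.17 to 0.20), and macrophage Psmb8 without F133V-partner DMSO replicate 1 (adjusted p = 0.066). With library size scaling the coculture values of B2m and Erap1 for olaparib were −0.08 and −0.07 (adjusted p = 0.17 and 0.25), and with DESeq2 that of macrophage H2-D1 had an adjusted p of 0.052.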

How the results depend on the processing

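Of 188 member results tested, 55 were not called, 102 were called and kept call and direction in every alternative run for them, and 31 were called and did not. The alternatives were RLE or library size scaling, no filter on low counts, protein-coding genes only, length and GC trends removed, only the groups compared, a replicate block, DESeq2, leaving out each library, and leaving out vector monocultures with DMSO over 2 CPM of Lyz2. Without Tap1 and Tap2, 89 of 113 did, and the largest change lost was 0.28 (log2), that of Erap1 in DMSO coculture under library size scaling. Of 686 values for counts of called genes under alternatives, 681 stayed within 1.5 times. The exceptions were called members for olaparib in F133V coculture (5 in place of 3) and its interaction with genotype (3 in place of 5) with library size scaling, for olaparib in F133V monoculture with only the groups compared (3 in place of 5), and, without those Lyz2 libraries, all genes called for olaparib in vector monoculture (2952 in place of 4857) and members called for its interaction with genotype (1 in place of 3).

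Log2 values that changed sign, most of them not called, were as follows. With library size scaling they were Erap1 −0.043 for F133V against vector in olaparib coculture, Erap1 −0.11 for coculture of F133V cells with DMSO, Nlrc5 0.067 for olaparib in F133V monoculture, B2m 0.18, Tap1 0.088 and Erap1 0.15 for olaparib in F133V coculture, H2-K1 0.0064 for the genotype by olaparib interaction in monoculture, Tap2 0.0049 for the genotype by olaparib interaction in coculture, H2-D1 0.023 for the F133V partner of macrophages with DMSO, H2-K1 −0.031 for olaparib in macrophages opposite vector cells, Psmb9 −0.057 for olaparib in macrophages opposite F133V cells. Without the filter they were B2m 0.0088 for olaparib in F133V coculture, B2m −0.0031 for the macrophage interaction. With length and GC trends removed they were H2-D1 0.064 for F133V against vector in DMSO monoculture, Tapbp 0.086 for F133V against vector in DMSO coculture, B2m 0.043 for coculture of F133V cells with olaparib, B2m 0.079 for olaparib in F133V coculture, H2-K1 0.11 for the interaction of genotype and coculture with DMSO, Erap1 −0.024 for the F133V partner of macrophages with olaparib. Without those Lyz2 libraries they were Tap2 0.36 for olaparib in vector monoculture, Tap2 −0.30 for the genotype by olaparib interaction in monoculture. Leaving out single libraries gave ranges of Nlrc5 −0.15 to 0.019, Tap2 −0.82 to 0.16 and Tap1 −0.66 to 0.028 for olaparib in vector monoculture, Nlrc5 −0.17 to 0.23 and Tap2 −0.10 to 0.88 for the genotype by olaparib interaction in monoculture, H2-D1 −0.035 to 0.0074 for F133V against vector in DMSO monoculture, Nlrc5 −0.21 to 0.19, Tap2 −0.33 to 0.29 and Tap1 −0.092 to 1.57 for olaparib in F133V monoculture, Tap1 −1.38 to 0.048 for coculture of F133V cells with DMSO, Tap1 −0.23 to 0.82 for F133V against vector in olaparib monoculture, Erap1 −0.0077 to 0.033 for F133V against vector in olaparib coculture, Tap2 −0.55 to 0.47 and Nlrc5 −0.064 to 0.40 for the genotype by olaparib interaction in coculture, Tap1 −0.57 to 0.28 and B2m −0.043 to 0.0029 for olaparib in F133V coculture, Psmb9 −0.025 to 0.052 for olaparib in macrophages opposite F133V cells, Erap1 −0.0014 to 0.026 for the F133V partner of macrophages with olaparib. Of 27 calls of other named genes 24 held throughout; the others and the sign changes are H2-T22 0.013 for F133V against vector in DMSO monoculture and Tapbpl 0.17 for coculture of F133V cells with DMSO without length and GC trends, Tapbpl −0.078 to 0.0012 on leaving out single libraries, and the losses of Pdia3, Ezh2 and Psmb10 given beside their values. The cause was not tested.

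Library size scaling moved the share of higher calls by over 10 percentage points in 13 comparisons, given in the report. The median of all genes moved from −0.059 to −0.31 for F133V against vector in DMSO coculture, from 0.0066 to −0.20 for coculture of F133V cells with DMSO, and from 0.025 to 0.23 for olaparib in F133V coculture.

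Same-numbered libraries did not deviate together: over 16 comparisons within a cell type the correlations of their deviations ran from −0.048 to 0.046. No shared deviation was thus seen, but this check cannot show whether the libraries were made in pairs. Cancer cells and macrophages of the same coculture were not checked in this way. With the replicate block, called members were equal in each comparison but coculture of F133V cells with olaparib (7 in place of 6), where Tap1 was called (−1.61, adjusted p = 0.047). For F133V against vector in DMSO coculture all genes called were 12669 in place of 12686.

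Depth limits Tap1 and Tap2 in cancer cells, whose calls rest on at most 15 and 41 counts per library, and leaves Psmb8 and Psmb9 untested there. Class I genes share sequence, and strand was not known.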

Other observations

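The polycomb repressive complex 2, which places a repressive histone mark and is known to silence class I genes in some tumours, was read as a list of 4 genes. In F133V coculture with DMSO 4 of 4 rose against monoculture, where 35.6% of all genes did (median 0.38), with Ezh2, its methyltransferase, at 0.24 ± 0.06, adjusted p = 0.00038 (edgeR), Suz12 at 0.53 ± 0.03 and Eed at 0.61 ± 0.04. The Ezh2 rise was lost with scaling by library size alone (0.03, adjusted p = 0.66). With olaparib 4 of 4 fell in that coculture, where 37.0% of all genes did (median −0.53), with Ezh2 at −0.43 ± 0.06, adjusted p = 2e-08. In vector coculture with DMSO Ezh2 had a log2 change of −0.22 ± 0.05, adjusted p = 0.00089. The rise and the fall in F133V cells share the DMSO coculture libraries, and a link to class I levels was not tested. Over all genes the medians of these comparisons were 0.0066 and 0.025.

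Of 8 class II genes and partners 3 passed the filter in cancer cells, and 2 of them rose in F133V coculture with DMSO (median 2.19). Of 8 other peptidases 7 passed. Among all genes 35.6% rose and 34.8% fell in F133V coculture with DMSO, and 39.3% rose and 37.0% fell with olaparib there, comparisons that share the DMSO coculture libraries. Of the peptidases 5 rose and 1 fell in the former (median 0.30), and the latter had 2 higher and 5 lower (median −0.59). In macrophages opposite F133V cells with DMSO, all 7 loading chaperones rose, where 25.5% of all genes did (median 0.65), Calr by 0.77 ± 0.01, adjusted p = 2.9e-43 and Pdia3 by 1.01 ± 0.01, and with olaparib opposite F133V cells 7 of 7 fell, where 29.0% of all genes did (median −0.42). This rise and this fall share the 3 DMSO libraries opposite F133V cells.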
